A study of Mus musculus with 2 samples.

Results

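Nascent transcripts that lay in the second or a later intron of a gene, and whose detailed annotation named no repeat, made up 22102 of the 94487 transcripts that global run-on sequencing (GRO-seq) yielded in bone marrow-derived macrophages (BMDMs). They were picked from both annotated transcript lists by 3 properties of each row, none of them a measured level. The annotation had to begin with intron, the intron number had to be at least 2, and the detailed annotation could hold no repeat name. The control library gave 9732 such transcripts of 43122 and the IL-4 library 12370 of 51365. Second introns, at the lower edge of that rule, held 2655 and 3358 of them, and the first introns just outside it held 7128 and 9027 transcripts without a repeat.

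GRO-seq lets RNA polymerases that were already engaged resume on isolated nuclei with a labelled nucleotide, so the captured RNA marks where polymerase was transcribing. Introns are transcribed with the rest of the gene and spliced out afterwards, so signal in them reflects ongoing synthesis rather than stored mRNA. A polymerase that started at the gene's first promoter reaches a later intron after elongating through the first part of the gene. In long genes that journey takes many minutes. Later-intron transcripts can also start within the gene, at an internal promoter or an enhancer, or run antisense to it. The lists do not say where a transcript's polymerase started.

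Both libraries came from wild-type mice on the C57BL/6 background, aged 8 to 12 weeks. The bone marrow cells of these mice had been grown into macrophages for 6 days. For both libraries the sample labels name M-CSF as the growth factor, and the study's methods name L929 supernatant. The control cells were untreated, and the others received 20 ng/ml of IL-4, which polarizes macrophages to the alternative state, for 1 h. Each condition was 1 library, made from pooled run-on reactions, so no difference between them had a replicate check and no test was run. Intervals cover counting error only, at a level of 95%, and transcripts of 1 library are not independent of each other. The number of reads behind the libraries was not given in the sources used here.

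The lists were those of macrophages. In bulk cells like these, fewer cells of a type and less RNA per cell cannot be told apart. Of 12 macrophage marker genes, 10 held later-intron transcripts, with 129 in control and 138 after IL-4. Marker genes of T cells, dendritic cells, fibroblasts and the erythroid and megakaryocyte lineages held none in either library, and the B cell marker Cd79a and the granulocyte marker S100a9 held 1 transcript each, after IL-4, at a score of 0.1. The score is the value that the transcript caller gave each transcript, printed in steps of 0.1. Its scale was not given in the sources used here.

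The strongest later-intron signals mostly sat at the same places in both libraries, and several overlapped genes of small guide RNAs of the nucleus. In Kpna4, which encodes a nuclear import receptor, a transcript in intron 12 of 16 scored 64.7 in control and 41.4 after IL-4. It covered 250 of the 343 bases of Gm22009, annotated as a small Cajal body RNA, a class that guides the modification of spliceosomal RNAs. In Eif4g2, a translation initiation factor gene, a transcript in intron 13 of 20 scored 12.4 and 13.4 and overlapped the small nucleolar RNA Gm23262. In the helicase gene Eif4a1 the transcript over the small nucleolar RNA Gm25835 scored 5.8 and 7.3, and in the autophagy gene Atg16l1 the transcript over the small Cajal body RNA Gm25395 scored 4.3 and 3.9. The sequences of these 4 RNAs are shown because, of all small RNA genes in later introns, theirs were overlapped by the highest-scoring transcripts. They are GENCODE transcripts on GRCm38, written 5′ to 3′, with capitals for the bases inside the transcript called after IL-4. For Gm22009 only the covered bases are given.
Gm22009, chr3:69085105-69085354, minus strand: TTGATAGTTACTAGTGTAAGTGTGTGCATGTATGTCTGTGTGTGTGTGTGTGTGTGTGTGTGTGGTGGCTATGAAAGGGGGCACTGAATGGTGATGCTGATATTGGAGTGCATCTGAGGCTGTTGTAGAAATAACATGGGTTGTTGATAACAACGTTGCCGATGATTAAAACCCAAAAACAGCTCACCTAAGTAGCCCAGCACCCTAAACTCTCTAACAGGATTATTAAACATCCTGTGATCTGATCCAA
Gm23262, chr7:111076060-111076227, minus strand: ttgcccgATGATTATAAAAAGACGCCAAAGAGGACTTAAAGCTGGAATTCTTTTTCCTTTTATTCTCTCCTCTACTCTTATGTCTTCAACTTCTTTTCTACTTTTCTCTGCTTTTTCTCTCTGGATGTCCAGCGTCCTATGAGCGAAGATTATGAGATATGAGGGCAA
Gm25835, chr11:69668852-69668995, minus strand: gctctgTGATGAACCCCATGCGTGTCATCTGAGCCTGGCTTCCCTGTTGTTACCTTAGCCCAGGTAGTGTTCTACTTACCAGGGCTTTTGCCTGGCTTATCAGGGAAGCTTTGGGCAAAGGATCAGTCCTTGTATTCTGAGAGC
Gm25395, chr1:87776938-87777209, plus strand: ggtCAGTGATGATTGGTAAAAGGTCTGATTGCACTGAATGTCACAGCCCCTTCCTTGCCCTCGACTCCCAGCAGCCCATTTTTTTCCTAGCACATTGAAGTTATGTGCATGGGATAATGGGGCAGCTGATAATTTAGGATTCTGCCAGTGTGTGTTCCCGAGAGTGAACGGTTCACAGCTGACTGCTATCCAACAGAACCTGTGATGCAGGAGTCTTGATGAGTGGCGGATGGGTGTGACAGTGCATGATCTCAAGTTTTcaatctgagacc

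Small RNA genes on the same strand were rare elsewhere. They overlapped 42 of the 9732 control transcripts (0.432%, Wilson interval 0.319 to 0.583%) and 57 of the 12370 after IL-4 (0.461%, 0.356 to 0.596%). Among transcripts scoring 1 or more the share was 1.53% in control (0.834 to 2.80%, 10 of 653) and 2.62% after IL-4 (1.47 to 4.63%, 11 of 420). The single highest score belonged to none of them. It was a transcript that spanned 81 bp in control, 79 bp after IL-4, and ran antisense to intron 5 of Il1rapl1, a synaptic adhesion gene, at chrX:87238353-87238433 (mm10), with scores of 120.4 and 101.0. It was that gene's only later-intron transcript, and GENCODE lists no gene there on its strand. The other high scores in control were in Ogt, the enzyme that adds O-linked N-acetylglucosamine to proteins (intron 4 of 21, 12.7 in control and 7.1 after IL-4), and in the splicing factor gene Srsf5 (intron 5 of 7, 9.4 and 4.6). After IL-4 the mannose receptor gene Mrc1 joined them, with 10.0 in intron 7 of 29 against 2.0 in control. Jmjd1c, which encodes a histone demethylase family protein, scored 9.7 in intron 4 of 25, against 6.1 for an overlapping control transcript annotated as a simple repeat and so outside the rule.

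Below these few, the scores were low, and the libraries differed in how low and how long the transcripts were. The control median score was 0.3, the IL-4 one 0.2, and the share scoring 0.2 or less was 49.8% (48.8 to 50.8%) and 70.0% (69.2 to 70.8%). Control transcripts had a median length of 217 bp, with quartiles at 145 and 286 bp. Those of the IL-4 library had one of 318 bp, with quartiles at 235 and 443 bp. The IL-4 library therefore listed more, longer and weaker transcripts, which covered 4.53 Mb of later introns against 2.31 Mb in control, at a length-weighted mean score of 0.282 against 0.394. A score of 0.1 stood for 16.7% of control and 40.7% of IL-4 transcripts.

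**Figure D1:**
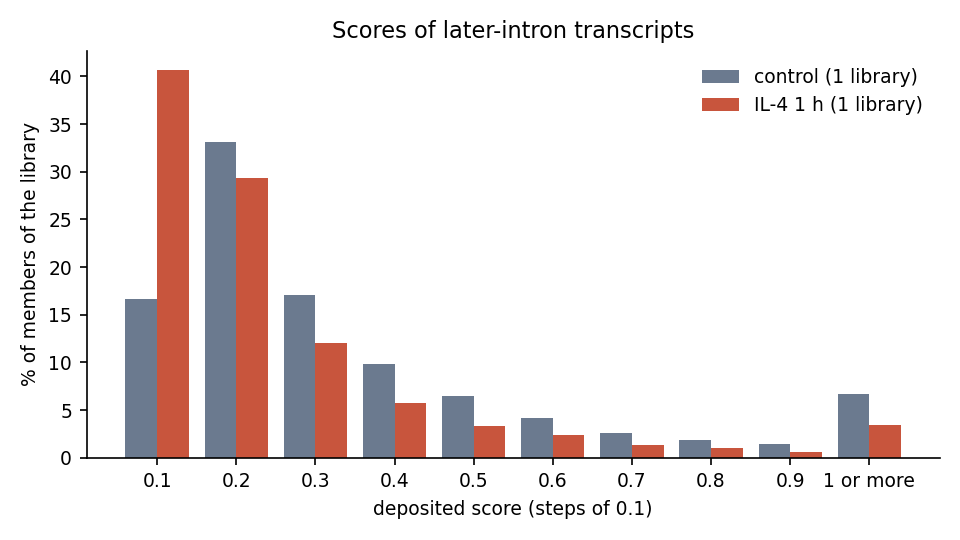
Share of later-intron transcripts without repeats (y axis, % of the library's 9732 control or 12370 IL-4 transcripts) at each deposited score (x axis, steps of 0.1, with 1 or more pooled), 1 library per condition. The IL-4 library holds 40.7% of its transcripts at 0.1, where control holds 16.7%, and control is higher at every step from 0.2 upward.

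The count of transcripts depended on the lowest score admitted. The IL-4 library had 1.27 times as many later-intron transcripts as control, and 0.758 times as many among those scoring at least 0.3. As a share of all called transcripts they made up 22.6% in control (22.2 to 22.97%) and 24.1% after IL-4 (23.7 to 24.5%), a difference of 1.51 percentage points (0.973 to 2.05) that turned to -0.764 (-1.54 to 0.0117) at scores of at least 0.3. First introns without repeats showed a like number ratio of 1.27, and later introns with repeats one of 1.10.

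Along the gene, later-intron transcripts were spread over all positions, and the IL-4 library was slightly less weighted to the 3′ end. Relative position was the intron number divided by the number of introns in the annotated transcript. Its median was 0.474 for control and 0.455 for IL-4, over host transcripts with a median of 13 introns in both libraries. Positions beyond 2/3 held 29.8% of control transcripts (28.9 to 30.7%) and 28.4% after IL-4 (27.6 to 29.2%), a difference of -1.39 points (-2.60 to -0.188). Per Mb of later-intron sequence in the host transcripts, the 5 equal bins of relative position held 43.5, 55.2, 47.0, 49.8 and 47.5 transcripts in control, from 5′ to 3′. After IL-4 they held 58.8, 70.6, 62.4, 61.6 and 56.4. The number ratio of IL-4 over control was 1.34 in the bin nearest the 5′ end and 1.20 in that nearest the 3′ end, and at scores of at least 0.3 it was 0.785 and 0.686.

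By absolute distance, the number ratio of IL-4 over control was higher at 50 kb or more from a transcription start site (TSS) than nearer to one. The median distance to the nearest TSS of any gene was 22282.5 bp for control and 24792.5 bp for IL-4. Transcripts at least 50 kb away made up 23.6% in control (22.8 to 24.5%) and 27.3% after IL-4 (26.5 to 28.1%), a difference of 3.67 points (2.52 to 4.82). The number ratio was 1.19 under 5 kb, 1.18 from 5 to 20 kb, 1.26 from 20 to 50 kb, 1.46 from 50 to 100 kb and 1.49 at 100 kb or more. At scores of at least 0.3 the ratio was below 1 throughout and again higher far from a TSS, from 0.699 under 5 kb to 0.861 in both outer bins. First introns showed 1.21, 1.26, 1.48, 1.62 and 1.35 over the same distances, and their outer bin held 37 and 50 transcripts. Later introns with repeats stayed between 1.06 and 1.13. The nearest TSS belonged to the host gene itself for 66.3% of control and 67.7% of IL-4 transcripts, and among those the difference at 50 kb was 4.48 points (3.10 to 5.86).

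**Figure D2:**
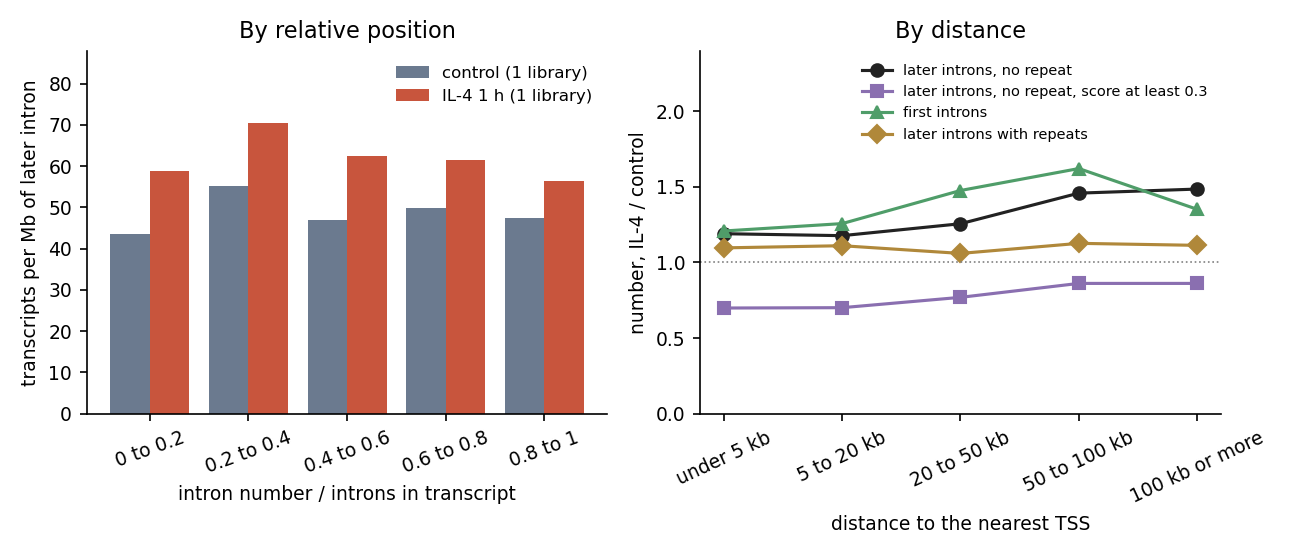
Left, later-intron transcripts without repeats per Mb of later intron (y axis) in 5 bins of relative intron position (x axis), 1 library per condition. Right, number in the IL-4 library over number in control (y axis) by distance to the nearest TSS (x axis) for later introns without repeats, the same at scores of at least 0.3, first introns, and later introns with repeats. Both libraries are highest in the second bin (55.2 and 70.6 per Mb), and the ratio of later introns is 1.19 in the nearest bin, 1.18 in the next and 1.49 in the furthest.

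The ratio was highest in genes whose mRNA IL-4 induces. The study's mRNA time course was made with other libraries of the same cell type and ran well beyond the 1 h of IL-4 used here. It groups induced genes in 4 clusters and repressed genes in 1, so a gene on a list need not have changed at 1 h. The induced list used here holds the 488 genes of the first 3 clusters and the repressed list 625 genes, as symbols only. The induced genes held 418 later-intron transcripts in control and 1995 after IL-4, a ratio of 4.77, and the repressed genes held 1041 and 674, a ratio of 0.647. Genes on neither list held 8273 and 9701, a ratio of 1.17. They include the fourth induced cluster of 501 genes, which held 218 and 304, a ratio of 1.39. With that cluster added to the induced list the ratio there was 3.61, and with it taken out of the remaining genes theirs stayed at 1.17. The IL-4 library exceeded control by 2638 later-intron transcripts, the net of 1577 more in induced genes, 1428 more in genes on neither list and 367 fewer in repressed genes. Measured from the annotated start of the host gene, the ratio in induced genes was 3.25 under 20 kb, 4.61 from 20 to 50 kb, 5.42 from 50 to 100 kb, 5.29 from 100 to 150 kb and 6.67 at 150 kb or more. In genes on neither list it stayed between 1.15 and 1.24. Different genes fill these bins. In the 19 induced genes of at least 200 kb with a later-intron transcript in their first 200 kb, the ratio in successive stretches of 50 kb was 7.60, 7.82, 4.33 and 8.94, with no steady order and with 5 control transcripts in the first stretch. In the fourth cluster the ratio was 1.29 under 20 kb, 1.02 from 20 to 50 kb, 1.15 from 50 to 100 kb, 3.38 from 100 to 150 kb and 2.36 at 150 kb or more, where 14 control and 33 IL-4 transcripts lay in 3 genes.

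In repressed genes the deficit was smallest at the far end. The ratio was 0.688 under 20 kb, 0.434 from 20 to 50 kb, 0.654 from 50 to 100 kb, 0.587 from 100 to 150 kb and 1.01 at 150 kb or more, where 142 control and 144 IL-4 transcripts lay in 23 and 17 host genes. Slc9a9, a sodium-proton exchanger gene, held 91 of those transcripts, and without it the ratio was 0.875. With relative position cut into 3 equal bins, the ratio in repressed genes was 0.582, 0.630 and 0.732 from 5′ to 3′, and in induced genes it was 5.36, 5.60 and 3.44. With both lists left out, the difference in the share at 50 kb or more was 2.13 points (0.911 to 3.35) and that beyond 2/3 of the introns was -0.635 (-1.96 to 0.690).

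**Figure D3:**
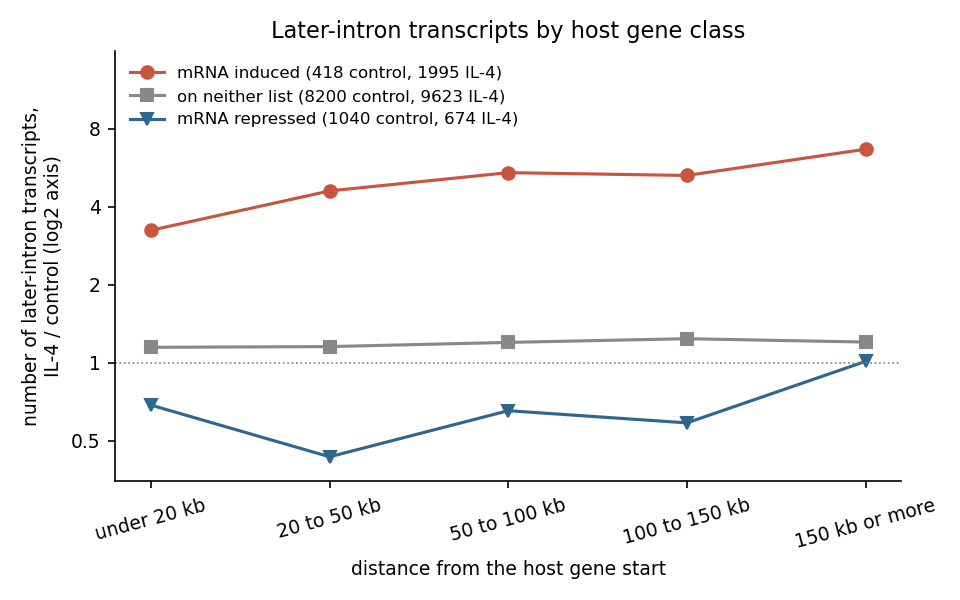
Number of later-intron transcripts in the IL-4 library over the number in control (y axis, log2 scale) by distance from the annotated host gene start (x axis), for host genes whose mRNA the study listed as induced or repressed and for the other host genes, 1 library per condition; the legend counts transcripts whose host has an annotated start. Different genes fill different bins. Induced genes go from 3.25 to 6.67 and repressed genes from 0.688 to 1.01, while the others stay between 1.15 and 1.24.

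Long induced genes show how far into the gene the added transcripts reached. Among 21 induced host genes of at least 200 kb, 19 held more later-intron transcripts after IL-4, 574 in all against 97 in control. Within 100 kb of the gene start they held 16 in control and 124 after IL-4, from 100 to 200 kb 44 and 269, from 200 to 300 kb 24 and 151, and beyond 300 kb 13 and 30. The annotated start can lie upstream of the start in use, so these distances may exceed those from the promoter in use. Snd1, which encodes a Tudor domain protein known as a STAT6 coactivator (chr6:28475139-28935162, mm10, plus strand), was the longest of the 26 host genes chosen by ratio or by number of transcripts. Of its 40 IL-4 transcripts, 37 lay in the first 184 kb of its 460 kb, and 3 lay beyond. In control it had 3, of which 2 lay beyond 276 kb.

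Later introns were also read gene by gene, as the sum of score times length over a gene's transcripts, which takes the score as a density per base. Log2 ratios compare IL-4 with control and are relative to their own median among the genes with a value in both libraries, which was 0.136. Such transcripts occurred in 4169 host genes: 2299 in both libraries, 954 in control alone and 916 in IL-4 alone. Of the 2299, 558 (24.3%) were at least 2-fold higher after IL-4 and 522 (22.7%) at least 2-fold lower. With 1 library per condition those shares include the spread between libraries, which was not measured, and for low scores the printed step of 0.1 is coarse. Over the whole range that rounding allows, 306 genes stayed at least 2-fold higher and 271 at least 2-fold lower.

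Both directions had a different make-up. In the 558 higher genes the covered length was greater, with a median log2 ratio of 2.22, while the mean score was near even at -0.03, and 478 of them had more transcripts after IL-4. In the 522 lower genes the median log2 ratio was -0.61 for covered length and -1 for mean score, and 363 had fewer transcripts. Over all 2299 genes those medians were 0.69 and -0.58, and 895 had more transcripts after IL-4 and 633 fewer. The sum that sorted the genes holds number, length and score, so part of this make-up follows from the sorting.

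Among genes with at least 3 transcripts in each library, those furthest above control included receptors, a growth factor and a kinase. Tcf7l2, which encodes a transcription factor of the Wnt pathway (chr19:55741820-55933654, plus strand), had 6 control and 98 IL-4 transcripts, which covered 1462 and 42996 bp. Its log2 ratio was 5.42 (4.77 to 6.15 over the rounding range), the largest among the 703 genes with at least 3 transcripts in each library. The 98 lay along most of the gene, with 30, 21, 25, 20 and 2 in its 5 successive stretches of 38.4 kb. Mrc1, the mannose receptor CD206 and a classic marker of alternative polarization (chr2:14229392-14332057, plus strand), had 7 control and 51 IL-4 transcripts, with a log2 ratio of 4.35 (4.18 to 4.52). They lay in all 5 equal stretches of the gene, with 11, 12, 12, 7 and 9 after IL-4 against 0, 2, 1, 0 and 4 in control. Igf1, the secreted insulin-like growth factor, had 10 and 43 transcripts and a log2 ratio of 3.84 (3.52 to 4.18).

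Under the same minimum of 3, the other 5 of the 8 largest ratios were in genes with 8 to 40 transcripts after IL-4. The membrane protease gene Adam8 had 3 control and 8 IL-4 transcripts, and its highest score went from 0.2 to 6.0, giving a log2 ratio of 4.81 (4.37 to 5.37). Dab2, an endocytic adaptor, had 6 and 13, with mean scores of 0.209 and 0.948 and a log2 ratio of 4.44 (4.05 to 4.90). Its first introns held 3 and 24 further transcripts. The tyrosine kinase gene Tec had 3 and 28 (log2 ratio 4.196, 3.50 to 4.85), Snd1 3 and 40 (4.14, 3.40 to 4.87), and Cd44, the hyaluronan receptor, 3 and 23 (4.09, 3.59 to 4.59). In all 3 the mean score was under 0.3 in both libraries, so the number and length of transcripts set them apart rather than the score. Covered length in control and after IL-4 was 412 and 10737 bp in Tec, 565 and 11973 bp in Snd1, and 444 and 8067 bp in Cd44. Longer transcripts were a trait of the IL-4 library at large.

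5 genes with none in control held the most after IL-4. The Src-family kinase gene Fyn (chr10:39368855-39565381, plus strand) had 49, the lipid transfer gene Osbpl3 30, the Rab GTPase-activating gene Tbc1d16 24, the Rac exchange factor gene Tiam1 24 and the endoplasmic reticulum gene Reep3 11. In Fyn 44 of the 49 lay in the first 118 kb of 197 kb (10, 21 and 13 in the first 3 of 5 equal stretches), with 2 and 3 in the last 2. Its intron 2 of 12 held 1 of the 3 highest-scoring IL-4 transcripts without a control counterpart, at 1.7. No fold was computed for these genes, since control listed nothing in their later introns. Their mean IL-4 scores were 0.216 for Fyn, 0.182 for Osbpl3, 0.279 for Tbc1d16, 0.118 for Tiam1 and 0.153 for Reep3. No Tiam1 transcript scored above 0.2, and the IL-4 library listed a larger share at 0.2 or less than control did. First introns of Reep3 held 2 control transcripts, and those of the other named genes held none. Whether these genes were silent in control was not tested.

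With at least 3 transcripts in each library, the genes furthest below control included a receptor ligand, a lipid transfer protein and signalling genes, and in some the score was lower rather than the number of transcripts. Gpnmb, a lysosomal transmembrane glycoprotein (chr6:49036546-49070929, plus strand), had 8 control and 7 IL-4 transcripts, while its mean score was 1.10 and 0.199. Its log2 ratio was -3.62 (-4.11 to -3.24). Gas6, the ligand of the Mertk and Axl receptors (chr8:13465374-13494490, minus strand), had 16 and 3, none of the latter above a score of 0.1, and a log2 ratio of -3.25 (-4.54 to -2.31). Osbpl8, another lipid transfer gene, had 35 and 10, none of them in its first 26.5 kb, with a log2 ratio of -2.70 (-3.64 to -1.98). Prex1, a Rac exchange factor, had 22 and 6 (-2.55, -3.21 to -1.96), and its first introns held 25 and 20.

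The remaining 4 of the 8 lowest ratios under that minimum were close together. Dpysl2, a microtubule-binding protein, had 3 transcripts in each library and a log2 ratio of -2.61 (-3.70 to -1.92). The G protein gamma subunit gene Gng2 had 23 and 5 (-2.58, -3.21 to -2.02). The gene listed as 4632428N05Rik, whose current symbol is Vsir and which encodes the checkpoint protein VISTA, had 8 and 4 (-2.55, -3.36 to -1.93), and Plekhm3 had 16 and 3 (-2.53, -3.23 to -1.86). The IL-4 library listed no later-intron transcript in Nrp1, a co-receptor of semaphorins and vascular growth factor, where control had 14, nor in the kinase gene Dapk1 (11), the guanine exchange factor gene Dock8 (11), the transcription factor gene Nfatc2 (9) and the endolysosomal channel gene Tpcn1 (8). Dock8 still had 3 first-intron transcripts after IL-4, against 7 in control.

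**Figure D4:**
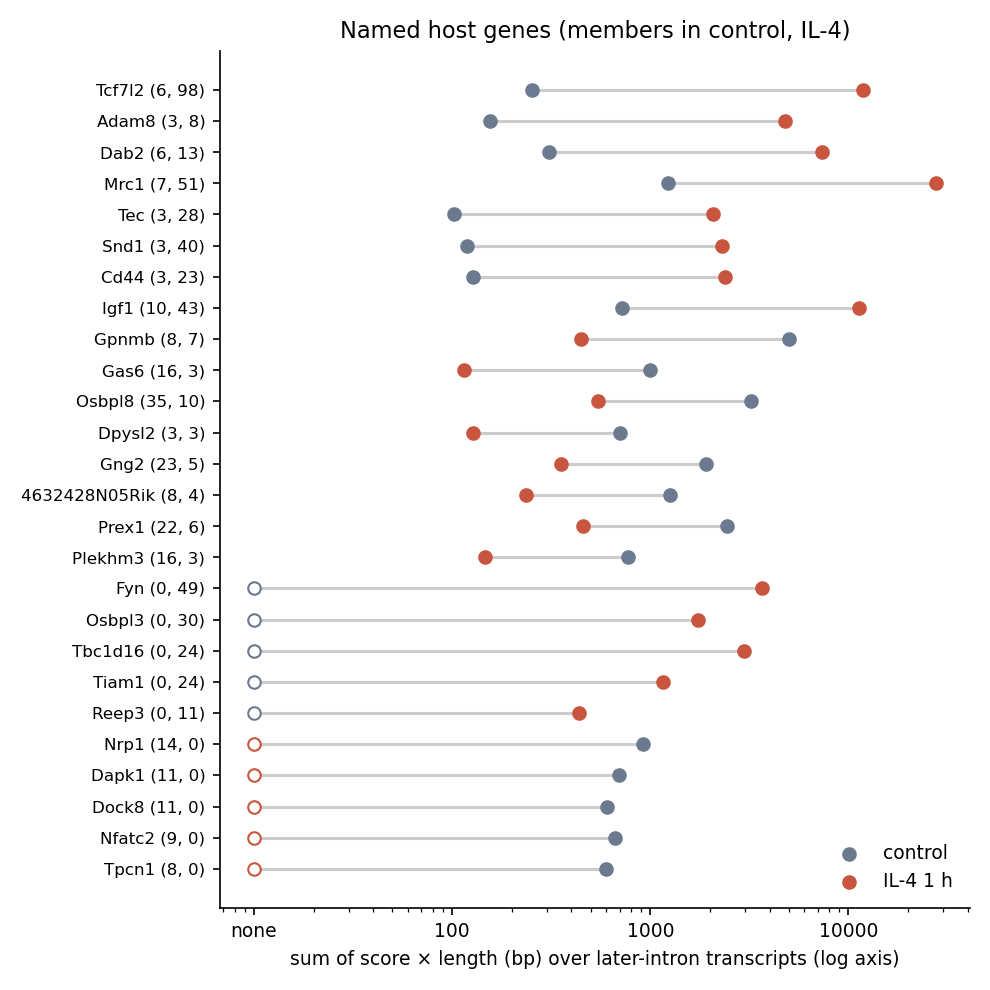
Sum of score times length over later-intron transcripts without repeats (x axis, log scale, none at the left edge as open circles) in control and after 1 h of IL-4 for the 26 host genes named by rule, with the number of transcripts in control and after IL-4 in brackets, 1 library per condition. Tcf7l2 moves from 253.1 to 11902.3 and Gpnmb from 5015.4 to 446.6.

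**Figure D5:**
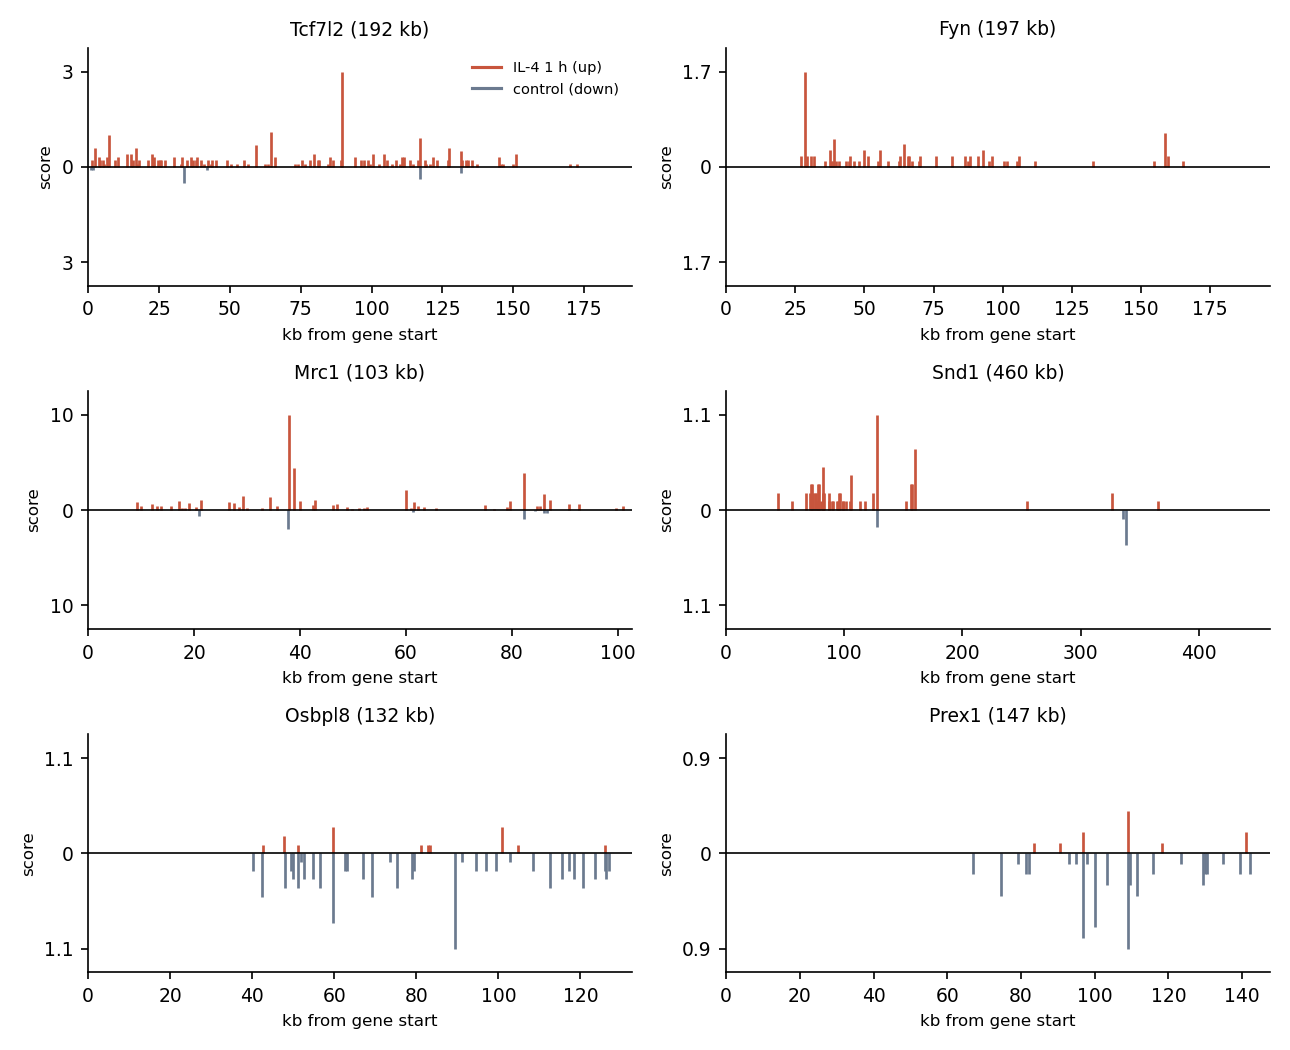
Deposited score (y axis, IL-4 upward and control downward, each panel on its own scale) of each later-intron transcript without a repeat against its distance from the annotated gene start (x axis, kb) in 6 named host genes, 1 library per condition. In Snd1 37 of 40 IL-4 transcripts lie in the first 184 kb, and in Osbpl8 the 35 control and 10 IL-4 transcripts both start beyond the first 26.5 kb.

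By the gene sums, most induced-mRNA genes were higher and about as many repressed-mRNA genes were lower as not. Of the 488 induced genes 201 hosted later-intron transcripts, 110 of them in both libraries. Of these 110, 92 (83.6%) were at least 2-fold higher and 2 lower, with a median centred log2 ratio of 2.53, beside 24.3% and 22.7% over all 2299 genes, whose median is 0 by the centring. A further 87 induced genes had such transcripts only after IL-4 and 4 in control alone. Of the 625 repressed genes 248 were hosts and 135 were in both libraries, where 66 (48.9%) were at least 2-fold lower and 15 (11.1%) higher, with a median of -0.99. A further 92 were in control alone and 21 in IL-4 alone. Of the fourth induced cluster 107 were hosts and 52 were in both libraries, where 15 (28.8%) were at least 2-fold higher and 7 (13.5%) lower, with a median of 0.12. In the 2054 genes on neither list the shares were 21.96% higher and 22.1% lower.

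The list of 34 genes of alternative polarization, which also holds receptor and kinase genes of the IL-4 pathway, had ratios on both sides. Its 2 lower genes were the kinase genes Jak1 and Tyk2. The list held 29 later-intron transcripts in control and 86 after IL-4, of which Mrc1 had 7 and 51. Of 34, 19 hosted later-intron transcripts, 7 of them in both libraries, where 3 (42.9%) were at least 2-fold higher, 2 (28.6%) lower and 2 between, beside 24.3% and 22.7% over all genes, with a median of -0.07. A further 9 were listed only after IL-4 and 3 only in control. Il4ra, the IL-4 receptor chain, had 2 transcripts and 8 (log2 ratio 4.48, 4.04 to 4.94), and Pparg, a lipid-sensing nuclear receptor, had 3 and 7 (1.75, 0.81 to 2.82). The transcription factor gene Batf3 had 4 after IL-4 and none in control. Of the Janus kinase genes, Jak1 had 4 and 1 transcripts (-1.23, -1.90 to -0.59), Tyk2 4 and 2 (-2.52, -3.80 to -1.59), and Jak3 none in control and 2 after IL-4. The remaining higher gene was Mrc1, described above.

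Genes of the list named inflammatory sensing were more often lower, or listed in control alone, than the reverse. That list was chosen with earlier results known. It holds genes that the paper reports as repressed by IL-4, among them Abca1, Nlrp3, Tlr2, Lyz1 and Smad3, so its direction was partly set by the choice. Of 35, 17 were hosts and 8 were in both libraries, where 4 were at least 2-fold lower, 1 higher and 3 between, with a median of -0.95, beside 22.7% lower and 24.3% higher over all genes. Abca1, Irak2 and Nlrp3 of those 4 are also on the repressed mRNA list. None was listed only after IL-4 and 9 only in control, beside 916 and 954 of all 4169 host genes. In Lyz1 and Smad3 the only control transcript ran antisense to the gene. First introns of Lyz2 held 1 transcript in each library, while those of Smad3 held 6 and those of Rela and Tnf 1 each, in control alone. Abca1, the cholesterol efflux transporter, had 24 control and 2 IL-4 transcripts, a log2 ratio of -4.68 (-5.89 to -3.84). The toll-like receptor kinase gene Irak2 had 9 and 4 (-1.92, -2.34 to -1.54), and the RNA sensor gene Tlr7 had 4 and 1 (-1.14, -1.60 to -0.70). Nfkbiz, a nuclear NF-kB regulator, had 4 in control and none after IL-4. Of the NF-kB subunit genes, Nfkb1 had 5 and 12 transcripts (0.43, with a range of -0.06 to 0.86 that spans 0), Rel 1 and 4 (2.23, 1.22 to 3.10), and Rela 1 in control and none after IL-4.

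Macrophage identity genes were mostly within 2-fold, as were host genes at large. Of 9 in both libraries, 6 were between, 1 (11.1%) was higher and 2 (22.2%) were lower, with a median of -0.10. Over all 2299 genes 24.3% were higher and 22.7% lower. Lyz2 was listed in control alone. Runx1, a transcription factor of blood cell development, had 65 and 68 transcripts (-0.26, -0.81 to 0.25), Csf1r, the receptor of the macrophage growth factor, 19 and 18 (0.32, 0.14 to 0.49), and Mertk, a receptor for dying cells, 13 and 12 (0.03, -0.50 to 0.53). Irf8 had 8 and 12 (0.06, -0.42 to 0.49) and Sfpi1, the gene of PU.1, 8 and 8 (-0.32, -0.89 to 0.21), both being lineage transcription factors. The higher gene was Emr1, the F4/80 antigen, with 6 and 15 (2.22, 1.75 to 2.68). The mRNA list, which also draws on later times, has it among the repressed genes. The lower ones, named after their values were seen, were Itgam, the integrin chain CD11b, with 4 and 1 (-1.75, -2.50 to -0.99), and the lysosomal glycoprotein gene Cd68 with 1 in each library (-1.45, -2.77 to -0.45). In Cd68 the IL-4 transcript ran antisense to the gene and the control one did not. That ratio therefore compares opposite strands and is no measure of a fall in Cd68 transcription.

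Where both libraries called overlapping transcripts, the ratios of later introns were close to those of pairs of all classes. A pair was a control and an IL-4 transcript on the same strand that were each other's largest overlap. Over 26395 such pairs of any annotation the median log2 ratio was -0.32, and ratios are given relative to it. The 3894 pairs in which both were later-intron transcripts had a median of -0.09 (quartiles -0.68 and 0.32). Of them 10.6% were at least 2-fold higher and 12.7% lower, beside 10.2% and 11.5% of the pairs of all classes. In induced genes the 257 pairs had a median of 1.13, and 135 were at least 2-fold higher and 2 lower. In repressed genes the 281 pairs had a median of -0.68, with 10 higher and 80 lower.

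The largest pair ratios were in 3 genes already named for their sums and in Snx8 and 2810055G20Rik. In Snx8, a sorting nexin gene, a control transcript of 332 bp in intron 5 scored 0.2. Its IL-4 partner of 2392 bp, annotated to intron 4, scored 1.2, a log2 ratio of 2.91 (2.52 to 3.38). The 2 shared 241 bp, so most of the IL-4 transcript lay outside the control one. Mrc1 intron 22 went from 0.3 to 1.7 (2.82, 2.56 to 3.13). Intron 3 of the long noncoding host 2810055G20Rik, intron 5 of Dab2 and intron 10 of Snd1 each had 0.2 in control and 1.1 after IL-4 (2.78, 2.39 to 3.26). The lowest ratios were in the ceramide kinase gene Cerk (1.3 and 0.2, log2 ratio -2.38, -2.85 to -2.00) and the scavenger receptor gene Stab1 (1.7 and 0.3, -2.18, -2.49 to -1.92). AF251705, now Cd300c2, and Gas7 both had 1.1 and 0.2 (-2.14, -2.62 to -1.75), and Plcl2 had 1.6 and 0.3 (-2.09, -2.40 to -1.82).

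Many transcripts had no such counterpart. No transcript of any class in the other library overlapped 44.9% of control (43.9 to 45.9%) and 56.8% of IL-4 later-intron transcripts (56.0 to 57.7%). The share without a counterpart after IL-4 was 49.7% under 5 kb from a TSS and 63.3% from 50 to 100 kb, and in control it was 38.8% and 48.3%. First introns had lower shares, 34.6% and 46.1%, but 57.3% and 54.6% of them lay within 5 kb of a TSS. There their shares without a counterpart were 27.3% in control and 35.6% after IL-4. From 5 to 20 kb they were 44.2% and 56.2%, and from 50 to 100 kb 51.6% and 70.4%. From 20 to 50 kb they were 41.9% and 59.7%, against 48.4% and 57.6% for later introns. Beyond 5 kb, first introns were thus mostly above later introns at like distance. Among transcripts of all classes the shares in control and after IL-4 were 26.2% and 37.4% under 5 kb. From 5 to 20 kb they were 42.3% and 51.5%, where later introns had 42.8% and 53.6%. From 50 to 100 kb they were 46.5% and 59.0%. Beyond 5 kb, later introns were thus at most a few points above transcripts in general. At scores of at least 0.3 the order of the libraries turned, to 28.4% for control and 25.7% for IL-4. The highest-scoring control transcripts without a counterpart were in Lhfpl2 (1.9), Dapk1 (1.6) and Irak2 (1.6), and after IL-4 they were in 2810055G20Rik (2.0), Fyn (1.7) and Mrc1 (1.5).

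Transcripts against the direction of the host gene were few. They made up 3.45% in control (3.10 to 3.83%) and 2.90% after IL-4 (2.62 to 3.22%), a difference of -0.544 points (-1.02 to -0.0779). Their share climbed toward the 3′ end in both libraries, from 1.49% and 1.62% at relative positions up to 0.2 to 8.10% and 7.61% beyond 0.8. Within 5 kb of a TSS it was 7.60% and 8.43%. A gene annotated on their own strand overlapped 25.5% of the 333 antisense transcripts in control and 20.4% of the 357 after IL-4.

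Inside their introns the transcripts leaned to the 5′ side. Of 3 equal parts of the intron, the one at the 5′ side held 40.0% in control (39.0 to 41.0%) and 40.6% after IL-4 (39.7 to 41.5%), and the one at the 3′ side held 28.9% and 28.1%, so the libraries differed little in this respect. The introns of the IL-4 transcripts were longer, with a median of 6685.5 bp against 5640 bp, and 42.2% against 38.5% lay in introns of at least 10 kb. An annotated exon of the same strand was touched by 27.2% after IL-4 and 24.04% in control.

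The promoters of the genes that stood highest were searched for the palindromic half-sites of STAT factors, since STAT6 is the factor that IL-4 activates. The motif TTCNNNNGAA, which reads the same on both strands, was looked for in the 250 bases upstream of RefSeq gene starts. It was found in 4.79% of 459 host genes at least 2-fold higher (3.19 to 7.15%), 6.49% of 416 at least 2-fold lower (4.50 to 9.28%), 5.80% of 1862 host genes with a ratio and 6.76% of 27025 genes. In the induced mRNA list, hosts or not, the share was 9.81% of 377 (7.20 to 13.2%), and in the repressed list 6.24% of 497 (4.43 to 8.72%). The shorter spacing TTCNNNGAA was found in 6.32% of the higher genes, 6.49% of the lower, 6.61% of those with a ratio, 8.13% of all genes, 7.96% of the induced list and 6.04% of the repressed list. Among the genes with the 8 largest ratios and the 5 listed only after IL-4, Snd1 and Cd44 held TTCNNNNGAA. Their upstream sequences are shown for that reason (RefSeq, GRCm38.p6, 5′ to 3′ on the gene's strand), with the match in capitals. A match is a description of letters, and binding was not measured in these libraries.
Snd1, chr6:28480098-28480347, plus strand: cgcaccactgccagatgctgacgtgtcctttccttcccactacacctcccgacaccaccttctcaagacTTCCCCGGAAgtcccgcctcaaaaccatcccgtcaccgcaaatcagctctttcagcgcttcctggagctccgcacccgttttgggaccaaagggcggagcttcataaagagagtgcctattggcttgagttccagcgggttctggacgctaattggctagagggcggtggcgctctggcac
Cd44, chr2:102901666-102901915, minus strand: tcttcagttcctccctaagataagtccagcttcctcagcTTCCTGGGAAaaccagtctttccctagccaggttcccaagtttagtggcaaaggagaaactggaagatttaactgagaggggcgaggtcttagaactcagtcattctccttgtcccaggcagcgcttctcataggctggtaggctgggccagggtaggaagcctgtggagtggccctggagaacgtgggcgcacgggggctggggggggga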

How the data were processed

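GRO-seq reads were aligned to mm10 and transcripts were called in each of the 2 libraries by the authors, who deposited 1 annotated list per library (BWA 0.7.10, SAMtools 0.1.19 and HOMER 4.2 per the submitters' processing notes; per the study's methods BWA ran with its defaults and HOMER in its GRO-seq style, while the score's scale was not given in the sources used here). The deposited score of each transcript, printed to 0.1, was used as given, so ratios carry the range that a rounding of 0.05 allows. Distance to TSS was taken without sign, to the nearest TSS of any gene. Annotation follows the transcript's midpoint, so 1325 control and 1378 IL-4 later-intron transcripts had their closest partner in another class. Host symbols came from the deposited lists for 87.0% and 88.1% of transcripts and otherwise from RefSeq. Host strand, gene start, introns and small RNAs came from GENCODE on GRCm38, the coordinate system of mm10; strand was known for 99.2% and 99.4%.

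Intervals are Wilson for shares, Newcombe for their differences. Python 3 with numpy, pandas and scipy was used, and pairing and gene sums were tested on simulated data. No test was possible with 1 library per condition. The members and gene lists were chosen with earlier results of these data known. Genes were named by rule: the 8 largest and 8 smallest ratios with 3 or more transcripts in each library, the 5 largest in each library alone, list genes with 3 or more transcripts (at most 6 a list), 5 pairs in each direction with a score of 1 or more, and the 5 highest and 3 highest unmatched transcripts per library. Slc9a9, the small RNA genes, Itgam, Cd68, Jak3, Rela, the most populated host genes and the promoters shown were picked after values were seen. Motif searches inside the transcripts were not run, for want of a genome sequence.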

Additional observations from a re-analysis of the deposited data

How the results depend on the processing

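Of 49 alternatives over 8 results, 27 left the value within its interval or, for counts, within 1.5 times. No replicate could be left out, and no paired analysis was possible because each condition was 1 library and the labels carry no replicate number. The share of later-intron transcripts among all transcripts (1.51 points higher after IL-4) was 3.15 at lengths of at least 200 bp, 0.183 with repeats kept, 0.0894 among intron transcripts without repeats, 0.495 without the listed mRNA genes, 0.430 without these and the fourth induced cluster, and reversed to -0.764 at scores of at least 0.3. The unmatched share (11.9 points) was 15.3 at 200 bp, 22.4 when 50% of the transcript had to be overlapped, 9.66 with repeats kept, and reversed to -2.69 at scores of at least 0.3. The share at 50 kb or more (3.67 points) was 4.85 at 200 bp, 1.53 with the limit at 100 kb, 2.37 with repeats kept, 2.13 without the listed genes and 2.01 without these and the fourth cluster. The share beyond 2/3 of the introns (-1.39) was -2.80 at scores of at least 0.3. The median pair ratio (-0.09) was -0.42 without centring, 0 at scores of at least 0.3, -0.048 for score times length and -0.14 with repeats kept. Genes at least 2-fold higher numbered 164 and lower 128, of 558 and 522, when 3 transcripts were required in each library, which leaves 703 genes. The antisense share moved by less than its interval under its 3 alternatives. The alternatives without the listed mRNA genes or the fourth cluster, and with distance from the host gene start (3.13 points), were chosen after seeing the data. Scores of 0.1 and 0.2 limit every value here, since the printed step is 0.1.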

Other observations

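The host genes with the most later-intron transcripts over both libraries, picked after their values were seen, were long genes expressed in macrophages. 1700112E06Rik, a gene of 1036 kb, had 149 in control and 171 after IL-4 (centred log2 ratio 0.05, -0.40 to 0.48 over the rounding range). Zeb2, a zinc finger transcription factor gene, had 77 and 84 (0.20, 0.07 to 0.33), at mean scores of 1.28 and 0.971, the highest of the 6 most populated genes. Tns3, which encodes an adhesion protein, had 60 and 115 (1.70, 1.17 to 2.23), the sorting nexin gene Snx29 32 and 109 (2.89, 2.30 to 3.50), and Dennd1a, a Rab exchange factor gene, 39 and 87 (1.147, 0.56 to 1.70). Snx29 is on the list of induced mRNAs.

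Small RNA genes inside later introns differed by host. Eif4a1 held 3 small nucleolar RNA genes overlapped by called transcripts, and all 3 scored higher after IL-4: Gm25835 with 5.8 and 7.3, Gm22988 with 1.2 and 1.9, and Gm24029 with 0.5 and 1.3. Gm24119, in the mitochondrial carrier gene Slc25a3, had 1.0 and 1.9. Gm22486, in Ptcd3, had 1.6 and 1.4. Others were lower after IL-4 too, such as Snord59a in Atp5b with 1.1 and 0.5, and Gm25617 in Gsk3b with 0.8 and 0.3. The share of all small RNA genes that was higher was not counted, and those named here were picked after their values were seen. These differences have no replicate check.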
